A study of Mus musculus with 6 samples.

Results

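The 8 genes described here are 3 members of the Phf11 gene cluster of mouse chromosome 14 (Phf11a, Phf11b and Phf11d) and 5 members of the Ifi200 cluster of mouse chromosome 1 (Ifi203, Ifi204, Ifi205, Mndal and Aim2), of 21368 genes that could be named on the arrays. They were found as all non-control probes whose RefSeq accession belongs to these genes, 11 probes in all: 4 for Ifi203 and 1 for each of the others. The genes were chosen by the difference between the genotypes in these same arrays, above all that of Phf11d and Ifi205, so their differences are given below as a description and carry no test. The arrays come from melanocyte stem cells, the reserve of pigment cells in the hair follicle, sorted from male mouse skin as green fluorescent cells of low side scatter. There were 3 arrays from wild-type (WT) mice and 3 from K14-SCF Tg mice, whose transgene places stem cell factor (KIT ligand) under the promoter of keratin 14, a gene of basal keratinocytes. The reporter behind the fluorescence, the age and the strain background are not given in the sources used here. The labels number the replicates but do not say that they are separate animals, so errors and p-values cover only how these samples vary, which could be technical variation.

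The Ifi200 (PYHIN) genes encode nuclear and cytosolic proteins that mostly pair an N-terminal pyrin domain, which binds other pyrin domains, with a C-terminal HIN domain, which binds double-stranded DNA. AIM2 is the best known of them: on cytosolic DNA it recruits the adaptor ASC and caspase-1 into an inflammasome. Many of the family are induced by interferon, and the cluster is known to differ between inbred mouse strains. The PHF11 proteins carry a PHD finger, a zinc-binding fold that in many nuclear proteins reads histone tails, and the mouse holds several tandem copies beside the histone methyltransferase gene Setdb2. In the RefSeq order of the genes of these families and Setdb2, Phf11a, Phf11b, Phf11d and Phf11c follow one another. The Ifi200 cluster runs from Aim2 at one end to Ifi205 at the other. Genes outside the families were not placed in this order.

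The stretch just before the transcript start is shown for 6 of the genes, since it is where interferon-responsive genes usually carry their response element and it shows how far the copies resemble each other. The sequences come from RefSeq on build GRCm38.p6, run 5′ to 3′ on the strand of the gene, and cover the 150 bases before an annotated start. Capitals mark the letters GAAA, any 2 bases and GAAA, the core of the interferon-stimulated response element, searched on both strands.
Phf11a (chr14:59297523-59297672, minus strand): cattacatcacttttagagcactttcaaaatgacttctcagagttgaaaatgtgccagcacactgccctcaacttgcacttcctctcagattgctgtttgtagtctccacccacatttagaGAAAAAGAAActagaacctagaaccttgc
Phf11b (chr14:59341331-59341480, minus strand): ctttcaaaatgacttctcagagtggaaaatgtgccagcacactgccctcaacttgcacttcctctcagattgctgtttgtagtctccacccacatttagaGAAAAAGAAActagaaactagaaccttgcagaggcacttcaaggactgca
Phf11d (chr14:59365491-59365640, minus strand): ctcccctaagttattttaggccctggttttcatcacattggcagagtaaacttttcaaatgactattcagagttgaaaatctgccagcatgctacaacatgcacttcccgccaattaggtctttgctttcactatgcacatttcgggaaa
Ifi205 (chr1:174031756-174031905, minus strand): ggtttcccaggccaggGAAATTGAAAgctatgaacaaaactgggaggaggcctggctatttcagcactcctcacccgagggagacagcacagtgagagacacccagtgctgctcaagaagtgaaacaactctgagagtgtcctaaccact
Ifi203, the window of 2 that holds the core (chr1:173942493-173942642, minus strand): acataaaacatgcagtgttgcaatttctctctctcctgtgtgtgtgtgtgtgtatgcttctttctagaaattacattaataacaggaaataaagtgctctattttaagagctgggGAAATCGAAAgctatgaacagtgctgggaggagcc
Mndal, the window of 2 that lies further upstream (chr1:173880188-173880337, minus strand): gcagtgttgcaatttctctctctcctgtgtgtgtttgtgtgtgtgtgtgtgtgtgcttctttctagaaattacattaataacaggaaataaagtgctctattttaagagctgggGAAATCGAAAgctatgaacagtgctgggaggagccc

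Phf11a and Phf11b carried the same core, GAAAAAGAAA, beginning 29 and 50 bases before the annotated start, in windows that were 74.3% identical over 171 aligned columns. The Phf11d window was 52.8% identical to that of Phf11a and 49.1% to that of Phf11b, where Phf11 windows against Ifi200 windows gave 44.1% to 51.2%. Windows were aligned end to end, each ending at its own annotated start, so these figures can understate stretches that copies share. The printed Phf11a and Phf11d stretches do share runs, such as tcagagttgaaaat, and the likeness of such parts was not measured. The Phf11d window held no interferon-stimulated response element core. Ifi203 and Mndal shared the core GAAATCGAAA, beginning 35 and 36 bases before the start, in windows 85.7% identical over 161 columns. Ifi205 carried GAAATTGAAA beginning 134 bases before its start and a match on the other strand beginning 23 bases after it, outside the stretch printed. The second Mndal window held TTTCTCTTTC, the core on the other strand. Neither the Aim2 window nor the other Ifi203 window held it, and Ifi204 was not among the promoters used here.

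Over the full windows, from 250 bases before to 50 after a start, the core was found in 5 of the 7 member genes with a window and in 6 of 9 other genes of the same families. Of all 27025 genes with a window 1079 held it (3.99%; 3.44% of 32851 windows), and of 26 interferon-induced genes on a list of such genes 16 did (61.5%). The core of the gamma-activated site, TTCNNNGAA, reads the same on both strands and overlapped no match of the first motif here. It was found in 0 of the 7 member genes, against 2582 of all 27025 (9.55%). Copies of a tandem cluster share sequence by descent, so these genes are not independent draws, and a match of letters does not show that a factor binds.

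**Figure D1:**
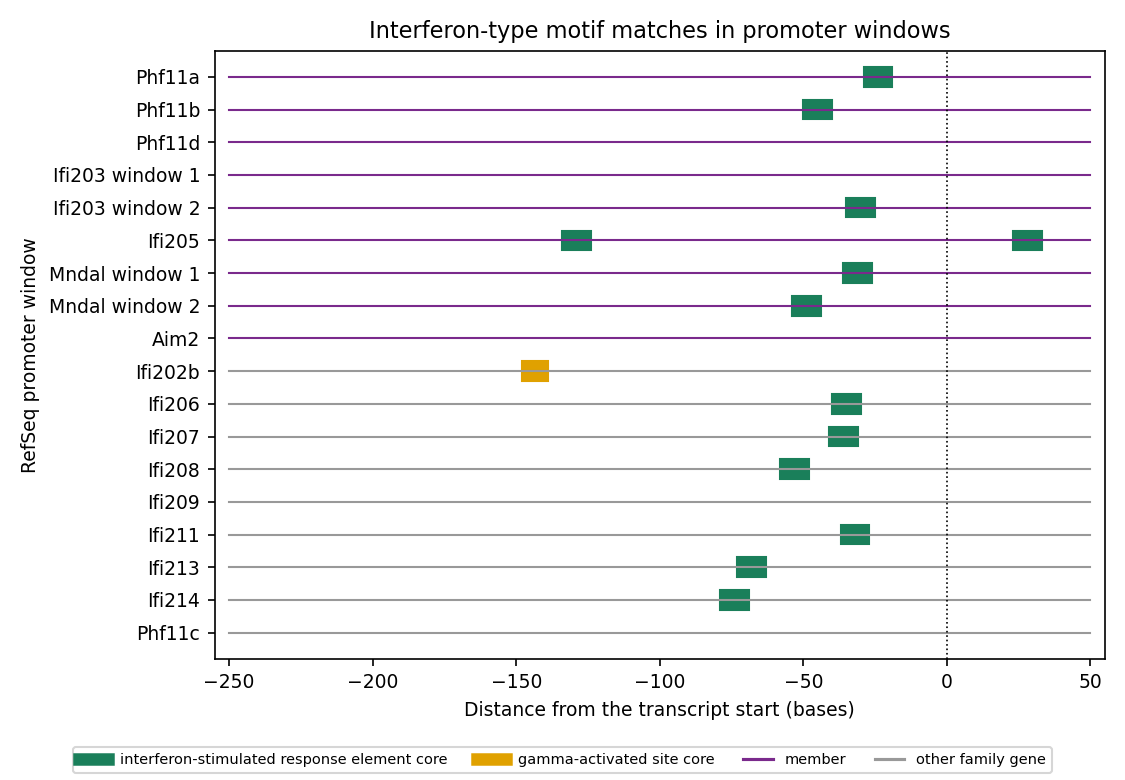
Matches to the cores of the interferon-stimulated response element (green) and of the gamma-activated site (yellow) in RefSeq promoter windows of the members (purple lines) and other genes of the families (grey lines), by distance in bases from the annotated transcript start (dotted line). Most green matches lie within 80 bases before the start, and the windows of Phf11d, Aim2, Ifi209, Phf11c and 1 of the 2 of Ifi203 hold neither motif.

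Levels are log2 of a probe's processed signal over the 75th percentile of its array, so 0 is a signal at that percentile, and differences are K14-SCF Tg minus WT. A signal counts as above background where the scanner software flagged it as well above background, which held for 43636 to 48520 of 55681 probes on an array (78.4% to 87.1%), with 0 saturated spots on any array. The melanocyte markers of the sort were above background on every array (10 of 10, among them Dct, Tyr, Tyrp1 and Pmel). Over all 18368 genes tested, limma called 1 gene higher (0.00544%), Hpse, which is not a member and was chosen for mention after its value was seen, and 0 genes lower (0%). At an unadjusted p under 0.05 limma counted 523 higher and 471 lower. Kitl, the gene of stem cell factor, differed by 0.37 (SE 1.58, n = 3 per genotype), and whether its probe reads the transgene is not known here. Its level was -3.13, -3.06 and 0.55 on WT replicates 1 to 3 and -2.73, -2.28 and 0.48 on K14-SCF Tg replicates 1 to 3. Replicate 3 was thus far the highest in both genotypes. WT replicate 1 was alone on its slide, the other 5 arrays shared 1 slide, and both arrays of replicate number 3 lay in slide row 2.

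**Figure D2:**
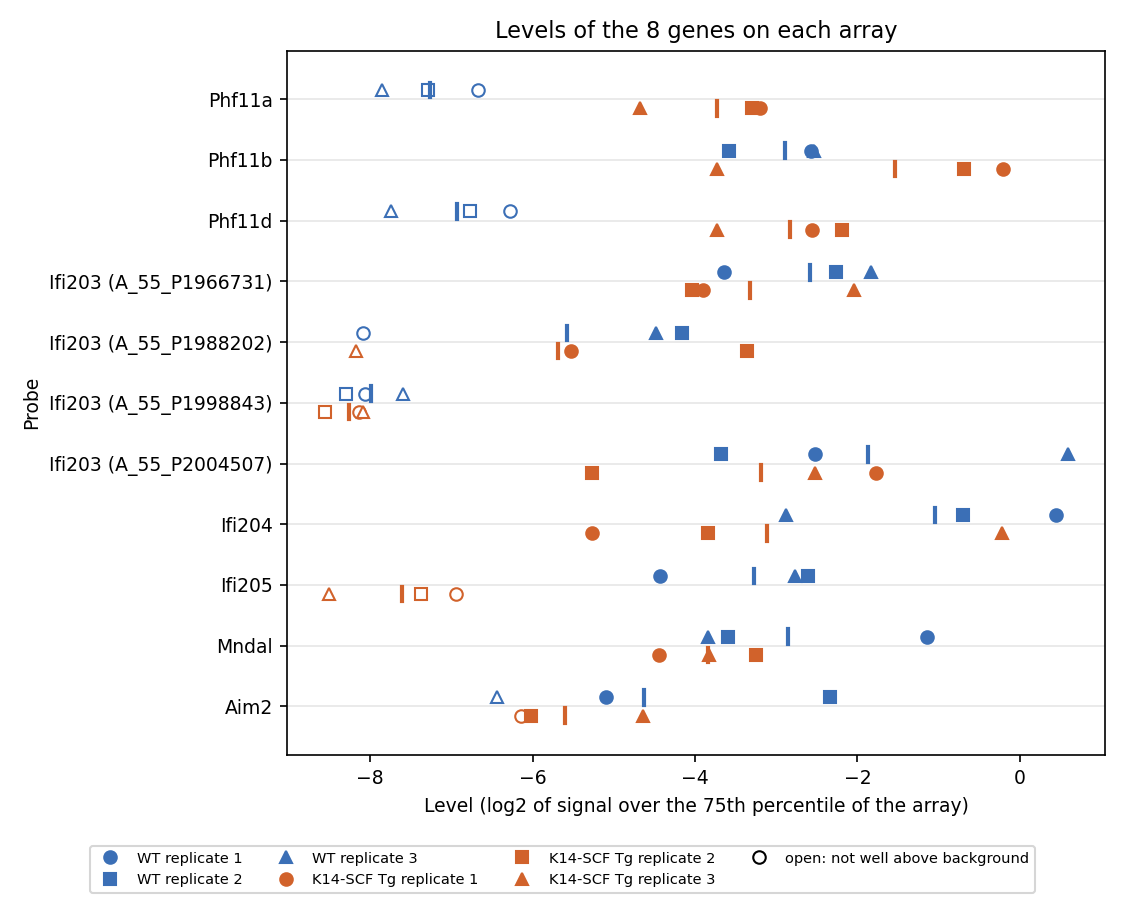
Level of each of the 11 probes of the 8 genes (log2 of signal over the 75th percentile of the array) on the 3 WT arrays (blue) and the 3 K14-SCF Tg arrays (orange). Each marker is 1 array, vertical ticks are the means of a genotype, and open markers are signals not well above background. Phf11a and Phf11d are open on every WT array and filled on every K14-SCF Tg array, Ifi205 is the reverse, and the other genes overlap between the genotypes.

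Phf11a and Phf11d were above background on the K14-SCF Tg arrays alone. Phf11d had the widest difference of the Phf11 genes. Its level was -6.28, -6.78 and -7.75 on WT replicates 1 to 3 and -2.56, -2.19 and -3.73 on K14-SCF Tg replicates 1 to 3. No WT array was flagged well above background and all 3 K14-SCF Tg arrays were, and by their levels the genotypes did not overlap. As a share of the 75th percentile, the signal ran from 0.465% to 1.29% in WT and from 7.52% to 21.9% in K14-SCF Tg. The means were -6.93 ± 0.75 (SD, n = 3) and -2.83 ± 0.81 (SD, n = 3), a log2 difference of 4.11 (SE 0.63).

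Phf11a stood at -6.67, -7.29 and -7.85 in WT and at -3.20, -3.29 and -4.68 in K14-SCF Tg, again with 0 WT and 3 K14-SCF Tg arrays above background and no overlap. The log2 difference was 3.55 (SE 0.59, n = 3 per genotype). With each probe centred on its own mean, the profiles of Phf11a and Phf11d differed by a root mean square of 0.33 on the log2 scale over 6 arrays, 3 of them with signals not above background. In both genes K14-SCF Tg replicate 3 was the lowest of its genotype, and the WT levels, none above background, have no order. The probe sequences were not used here, so whether the probes of these copies also bind each other's transcripts was not tested.

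Since a signal not above background gives only a bound, the difference was also taken against a floor: on each dim array, the lowest signal that was well above background there, or the signal of the probe itself if that was higher (-6.58 to -5.75). On this basis, and for this scaling alone, Phf11d was 9.64-fold and Phf11a 5.19-fold higher in K14-SCF Tg. The floor is a convention and not a detection limit. Of all 18368 genes tested, 941 (5.12%) had every K14-SCF Tg array above every WT array and 54 (0.294%) were above background on 0 WT and 3 K14-SCF Tg arrays. Phf11a and Phf11d were the 2 members of 8 that showed both patterns, and since the choice of genes used this contrast nothing is read from that count. With normexp background correction of the median signals (offset 50) and quantile normalization, the log2 differences of Phf11d and Phf11a came to 1.78 and 1.33. The offset is added to every signal and makes differences of dim probes smaller, so the folds against the floor do not carry over to it.

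Phf11b, which lies between the genes of these probes on the chromosome, was above background on all 6 arrays and did not separate the genotypes. Its level was -2.57, -3.59 and -2.54 in WT and -0.21, -0.69 and -3.72 in K14-SCF Tg. K14-SCF Tg replicates 1 and 2 were above every WT array, and replicate 3 was the lowest array of all. The log2 difference was 1.36 (SE 1.15, n = 3 per genotype), and without K14-SCF Tg replicate 3 it was 2.45, without K14-SCF Tg replicate 1 0.69 and without K14-SCF Tg replicate 2 0.93. Without both arrays of slide row 2, an alternative added after these values were seen, it was 2.63. Its profile differed from that of Phf11d by a root mean square of 1.65 and from that of Phf11a by 1.35.

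The remaining copy and 3 neighbours of the cluster come from a list of related genes and were tested. Setdb2, also on that list, had no named probe and was not measured. Phf11c stood at -4.08, -4.18 and -1.27 in WT and at -3.95, -0.31 and -2.997 in K14-SCF Tg. Its highest arrays were thus 1 of each genotype, and the log2 difference was 0.76 (SE 1.45, n = 3 per genotype; limma adjusted p = 0.993). Rcbtb1, Cab39l and Cdadc1, genes placed on the list as neighbours of the cluster, gave -0.28, 0.50 and -0.29. Each read by its brightest probe, limma called 0 of these 4 genes in either direction (lowest adjusted p = 0.976), and 0 had an unadjusted p under 0.05.

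Ifi205 was the reverse of Phf11d. It encodes p205, a pyrin and HIN domain protein known for regulating expression of the adaptor gene Pycard and for a role in fat cell differentiation. Its level was -4.43, -2.61 and -2.77 on WT replicates 1 to 3 and -6.94, -7.37 and -8.51 on the K14-SCF Tg arrays. All 3 WT arrays were flagged well above background and no K14-SCF Tg array was, and by their levels the genotypes did not overlap. The signal was 4.64% to 16.4% of the 75th percentile in WT and 0.275% to 0.812% in K14-SCF Tg. The means were -3.27 ± 1.01 (SD, n = 3) and -7.61 ± 0.81 (SD, n = 3), a log2 difference of -4.34 (SE 0.75).

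Against the floor, again for this scaling alone, Ifi205 was 8.78-fold lower in K14-SCF Tg. Every K14-SCF Tg array lay below every WT array in 996 of 18368 genes (5.42%), and 11 genes (0.0599%) were above background on 3 WT and 0 K14-SCF Tg arrays. Ifi205 was the 1 member of 8 with both patterns. With normexp and quantile normalization its log2 difference was -1.87.

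The summed signal of 14 fibroblast markers was lower on the K14-SCF Tg arrays, while their single genes went both ways. In multiples of the 75th percentile, the sum was 76.8, 50.5 and 33.2 on WT replicates 1 to 3. On K14-SCF Tg replicates 1 to 3 it was 25.7, 14.4 and 15.01, so it did not overlap between the genotypes. A sum follows its brightest markers. The median log2 level of the 14 did overlap, at 0.06, -0.51 and -0.01 in WT and -0.68, -0.77 and -0.13 in K14-SCF Tg. Of the 14, 9 had negative and 5 positive log2 differences, with a median of -1.44 beside -0.01 over all genes tested, and 4 lay lower and 1 higher without overlap. The first 4 of the list, the collagen genes Col1a1, Col1a2, Col3a1 and Col5a1, gave -1.83, -1.87, -2.31 and -1.29. Limma called 0 of the 14 (lowest adjusted p = 0.563) and 5 had an unadjusted p under 0.05. Between 11 and 14 of the markers were above background on an array, and none was below background on every array of a genotype. The WT array with the highest sum, replicate 1, had the lowest Ifi205 level of its genotype. In K14-SCF Tg no Ifi205 level was above background, so there the levels have no order. The part of fibroblasts in the Ifi205 difference was not tested. In sorted bulk cells fewer cells of a type and less RNA per cell cannot be told apart.

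**Figure D3:**
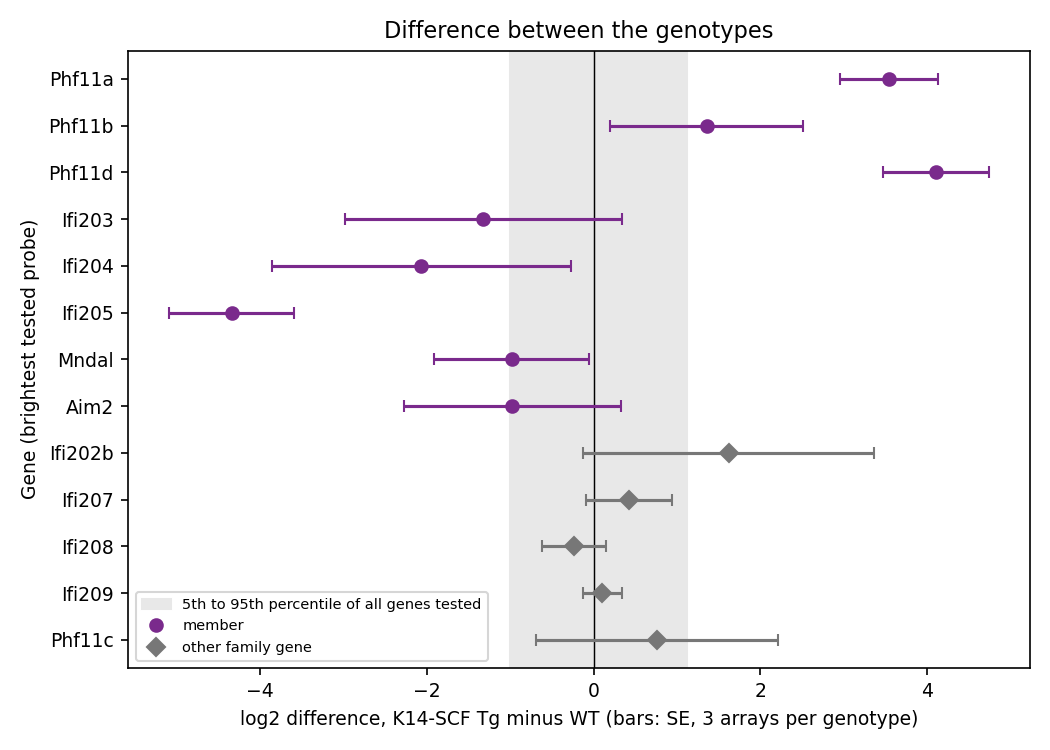
Log2 difference, K14-SCF Tg minus WT, of the brightest tested probe of each member (purple) and of 5 other genes of the families (grey), with bars for the SE from 3 arrays per genotype. The grey band spans the 5th to the 95th percentile of all genes tested (-1.004 to 1.121). Phf11a, Phf11b and Phf11d lie to the right of the band and Ifi203, Ifi204 and Ifi205 to the left, with the bars of Phf11b, Ifi203 and Ifi204 reaching into it, and Mndal and Aim2 lie inside it.

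Ifi204, Ifi203, Mndal and Aim2 overlapped between the genotypes. Ifi204 encodes p204, a DNA sensor often set beside human IFI16, which signals through STING. Its level was 0.44, -0.70 and -2.88 in WT and -5.27, -3.84 and -0.22 in K14-SCF Tg, above background on all 6 arrays. WT replicates 1 and 2 and K14-SCF Tg replicate 3 were the 3 high arrays. The K14-SCF Tg arrays alone spanned 5.05 on the log2 scale. The log2 difference was -2.06 (SE 1.79, n = 3 per genotype), -0.98 without K14-SCF Tg replicate 1, -3.51 without K14-SCF Tg replicate 3, -1.32 without WT replicate 1 and -4.43 without both arrays of slide row 2.

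Aim2, the inflammasome sensor, was near background. It stood at -5.10, -2.34 and -6.44 in WT and at -6.14, -6.01 and -4.63 in K14-SCF Tg, above background on 2 of 3 arrays of each. WT replicate 2 was the 1 array clearly higher than the rest, and K14-SCF Tg replicate 3 came next. The log2 difference was -0.97 (SE 1.30, n = 3 per genotype) and 0.17 without WT replicate 2.

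Mndal, a pyrin and HIN domain gene next to Ifi204 in the order of the family, had 1 high array. Its levels were -1.14, -3.59 and -3.84 in WT and -4.44, -3.25 and -3.83 in K14-SCF Tg, all above background. WT replicate 1, on a slide of its own, was the array that stood above the other 5. The log2 difference was -0.98 (SE 0.93, n = 3 per genotype), and without WT replicate 1, as also with the slide fitted as a block, it was -0.13.

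Ifi203, whose several transcripts encode HIN domain proteins of different length, was measured by 4 probes of 1 accession that did not follow one another. The brightest, A_55_P2004507, stood at -2.52, -3.68 and 0.59 in WT and at -1.77, -5.27 and -2.53 in K14-SCF Tg. Its highest array was WT replicate 3 and its lowest K14-SCF Tg replicate 2. A_55_P1966731 gave -3.65, -2.26 and -1.83 in WT and -3.90, -4.03 and -2.04 in K14-SCF Tg, with replicate 3 highest in both genotypes. A_55_P1988202 was above background on 2 arrays of each genotype, at -8.09, -4.16 and -4.48 in WT and at -5.53, -3.36 and -8.17 in K14-SCF Tg, so that K14-SCF Tg replicate 2, lowest by the first probe, was highest by this one. The fourth, A_55_P1998843, was above background on no array, between -8.56 and -7.60, and was the 1 member probe not tested.

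The log2 differences of the 3 tested Ifi203 probes were -1.32 (SE 1.66), -0.75 (SE 0.85) and -0.11 (SE 1.88), all negative and none larger than its SE. The first of them was -0.09 without WT replicate 3 and -0.28 without K14-SCF Tg replicate 2. The third changed its sign, from -1.37 without WT replicate 1 to 1.13 without K14-SCF Tg replicate 3. The probes share 1 RefSeq accession, and which transcripts or neighbouring copies each binds was not tested.

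Other Ifi200 genes were read from a list beside the members, and 6 had probes. Limma called 0 of the 4 with a tested probe, each read by its brightest (lowest adjusted p = 0.984; 0 with an unadjusted p under 0.05). Ifi213 and Ifi214 were above background on no array. Ifi202b encodes p202, a protein without a pyrin domain that holds DNA away from AIM2. Its brighter probe stood at -5.60, -6.10 and -5.10 in WT and at -5.45, -5.94 and -0.54 in K14-SCF Tg, and the other at -5.79, -6.58 and -6.03 in WT and -4.59, -6.09 and -0.66 in K14-SCF Tg. Both probes thus set K14-SCF Tg replicate 3 apart from the other 5 arrays. The log2 differences were 1.62 (SE 1.75) and 2.35 (SE 1.64), with limma adjusted p = 0.984 and 0.949.

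Ifi207, next to Ifi204 in the order of the family, was split between its probes. A_55_P2081105 stood at -1.06, -2.54 and -6.66 in WT and at -6.95, -7.89 and -3.05 in K14-SCF Tg. It was above background on WT replicates 1 and 2 and K14-SCF Tg replicate 3, the 3 arrays on which Ifi204 was high. The brighter probe over all arrays, A_51_P325281, stayed between -4.64 and -4.36 in WT and at -4.52, -4.58 and -3.03 in K14-SCF Tg, with replicate 3 highest. Ifi208 and Ifi209 were even over the arrays. The brightest Ifi208 probe ran from -1.93 to -0.81 and that of Ifi209 from -2.71 to -1.95, with log2 differences of -0.23 (SE 0.38) and 0.11 (SE 0.24). Each of these genes had 2 more probes that were not tested.

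**Figure D4:**
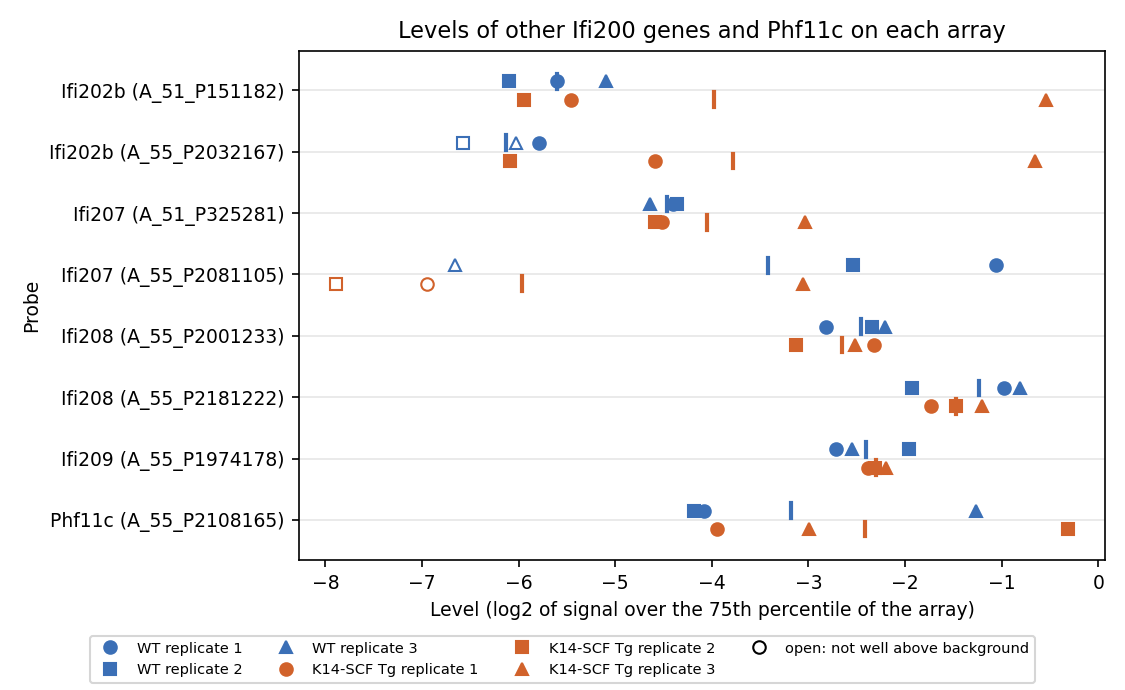
Level of the tested probes of 4 other Ifi200 genes and of Phf11c (log2 of signal over the 75th percentile of the array) on the 3 WT arrays (blue) and the 3 K14-SCF Tg arrays (orange), with ticks for the means and open markers for signals not well above background. Both Ifi202b probes show 1 K14-SCF Tg array near -0.6 with all other arrays at -4.59 or below, and 1 Ifi207 probe shows 3 high arrays from both genotypes.

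Spread within a genotype was large for most of the members. The pooled SD within a genotype was 2.19 for Ifi204, 2.03 for Ifi203, 1.59 for Aim2, 1.41 for Phf11b and 1.14 for Mndal, beside a median of 0.49 over all 18368 genes. Each member was also set beside the genes of like mean level (20 bins). All 8 members, each by its brightest tested probe, had an SD above the median of their bin. Of these 2, Ifi204 and Ifi203, were above its 95th percentile (3.39 and 2.97 times the median). The Ifi203 probes differed in this, with an SD of 1.04 for A_55_P1966731 and 2.30 for A_55_P1988202. Phf11a (0.72), Phf11d (0.78) and Ifi205 (0.91), the genes whose genotypes did not overlap, lay at 1.16, 1.24 and 1.48 times the median. Their SD takes in signals not above background, and their mean level averages the unlike levels of the genotypes. They were also chosen by their difference, so nothing is read from their smaller spread. Outside the members, Ifi202b and Phf11c were at 3.43 and 2.60 times the median of their bins and Ifi209 at 0.42.

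**Figure D5:**
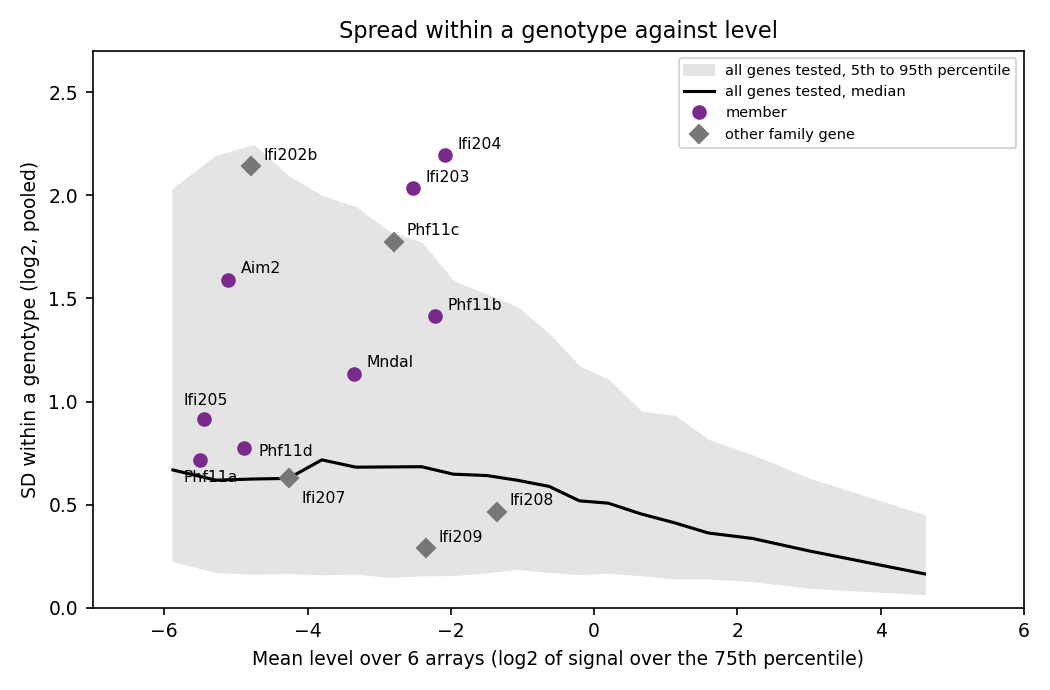
SD within a genotype (log2, pooled over both genotypes) against the mean level over 6 arrays, for the members (purple) and other genes of the families (grey diamonds), each by its brightest tested probe. The line and band give the median and the 5th to 95th percentile of all genes tested in 20 bins of level. Ifi204 and Ifi203 lie above the band, and Ifi209 and Ifi208 lie below the median line.

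Genes that act with the members were read from lists. Of the AIM2 inflammasome and its partners limma called 0 of 11 (median log2 difference 0.17; 0 with an unadjusted p under 0.05). Pycard, which encodes the adaptor ASC, stood at 0.52 (SE 0.25), the protease gene Casp1 at 1.505 (SE 0.84), the pore-former Gsdmd at 0.35 (SE 0.86) and the cytokine gene Il1b at -0.27 (SE 0.26). In cytosolic DNA sensing, limma called 0 of 12 (median 0.03; 0 with an unadjusted p under 0.05). The DNA sensor Cgas was at 0.11 (SE 0.24), its effector Sting1 at -0.87 (SE 0.45), the kinase Tbk1 at -0.63 (SE 0.41) and the transcription factor Irf3 at 0.10 (SE 0.31).

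No interferon gene, receptor or target passed either. Limma called 0 of 5 interferon genes and 0 of 15 genes of the receptors and their signal chain, with 1 of each at an unadjusted p under 0.05 and medians of -0.17 and 0.03. Ifnb1, Ifng, Ifna2 and Ifnk gave -0.30, 0.73, -0.17 and -1.53. Ifng was near background, above it on 1 WT and 3 K14-SCF Tg arrays (limma adjusted p = 0.867). Its K14-SCF Tg arrays all lay above its WT arrays, as in 5.12% of all genes tested. The receptor chains Ifnar1, Ifnar2, Ifngr1 and Ifngr2 gave 0.42, -0.06, 0.66 and 0.84. Of 31 interferon-induced genes 0 were called and 2 had an unadjusted p under 0.05, with a median of 0.26, 20 positive and 11 negative. Isg15, a ubiquitin-like modifier, gave 0.50 (SE 0.58), Ifit1 2.21 (SE 2.06), Ifit2 0.65 (SE 0.93) and Ifit3 0.47 (SE 0.95). The summed signal of these 31 genes overlapped between the genotypes, at 31.4 to 41.1 times the 75th percentile in WT and 32.4 to 46.0 in K14-SCF Tg. It was lowest on replicate 3 of each genotype. Of 10 interferon-induced genes of nuclear bodies, such as Sp100 (-0.30) and Pml (-0.18), 0 were called and 0 had an unadjusted p under 0.05 (median -0.10).

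Immune cells also express many Ifi200 genes, and their markers were read on the same arrays. The summed signal of 14 leukocyte markers, in multiples of the 75th percentile, came to 2.86, 7.56 and 4.38 in WT and to 3.50, 3.66 and 5.27 in K14-SCF Tg, with 13 or 14 of them above background on each array. That of 12 markers of macrophages, dendritic and Langerhans cells was 164 to 212 in WT and 192 to 204 in K14-SCF Tg, with 10 to 12 above background. Both ranges of sums overlapped. A sum follows its brightest markers, so its order over arrays is not an order of cell content. The median log2 level of the 12 was far lower, from -2.85 to -1.97 in WT and from -2.84 to -2.66 in K14-SCF Tg. Of the leukocyte markers 11 had positive and 3 negative log2 differences (median 0.38), 2 of them higher without overlap, and of the other list 7 were positive and 5 negative (median 0.07). Limma called 0 of either list, with 0 and 1 at an unadjusted p under 0.05. WT replicate 1, where Ifi204 and Mndal were highest, had the lowest sum of both lists. WT replicate 2, where Aim2 was highest, had the highest sum of leukocyte markers. Cd74, a bright marker of that list, stood at 1.97 there and at -0.59 and 1.03 on WT replicates 1 and 3. K14-SCF Tg replicate 3, the highest of its genotype for Ifi204 and Aim2, had the highest sums of its genotype in both lists. By the medians it was the highest of its genotype for leukocyte markers and the lowest for the macrophage list. The part of immune cells in these levels was not tested.

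Genes with the profile most like that of Phf11d and Ifi205 were found by the root mean square difference of centred log2 levels over 6 arrays, among 18368 genes. For Phf11d they were Phf11a (0.33), the chromatin remodelling gene Smarca1 (0.64) and Zc3h12d (0.75), of the regnase family of RNA-degrading proteins. Smarca1 stood at -4.54, -4.52 and -4.40 in WT and at -1.22, 0.00 and -2.01 in K14-SCF Tg, above background on every array. For Ifi205 they were Plppr1 (0.78), the growth factor gene Fgf9 (0.83) and Shq1 (0.89). Phf11d on the WT arrays and Ifi205 on the K14-SCF Tg arrays were not above background, so these rankings rest in part on levels without order. Zc3h12d was above background on 1 WT array and Plppr1 on 1 K14-SCF Tg array, each on all 3 arrays of the other genotype. Fgf9 stood at -5.91, -2.85 and -4.69 in WT, above background on all 3 arrays, and at -6.65, -8.70 and -8.50 in K14-SCF Tg, above background on none.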

How the data were processed

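cDNA from the sorted cells was amplified, labelled with Cy3 and measured on 6 Agilent 1-colour mouse arrays, per the labels' protocols. The scans were quantified in Agilent Feature Extraction 10.7.1.1 against a probe design of build mm9, per the file headers. The deposited intensity values are processed signals, background-subtracted and detrended within an array, and median spot and background signals. The authors' deposited value table holds a linear ratio, each processed signal over 1 constant per array. The flags were used as deposited.

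Spots of a probe were averaged without outlier spots, and log2 signals were scaled to the 75th percentile of the array over 55681 non-control probes. A probe counted as above background where at least 50% of its spots did. The 47709 probes above background on at least 3 of 6 arrays were tested with limma 3.58.1 in R 4.3.3 (no covariates, Benjamini-Hochberg over all tested probes, threshold 0.05), and a gene was read by its tested probe of highest mean. SEs come from the pooled SD of 3 arrays per genotype. Probes were named by RefSeq accession through a table of GRCm38.p6, a build other than that of the files, whose coordinates for genes were not used (28331 of 29786 probes with an accession matched). The fit was tested on simulated data.

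The members, the gene lists and the alternatives were chosen with earlier results of these data known, and the alternative without slide row 2 was added after the values given here were seen. All member probes are reported. Other genes were named as the first 4 tested of a list, all tested genes of the 2 families and the neighbours of the Phf11 cluster, and the 3 genes nearest in profile to Phf11d and Ifi205; not all are printed.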

Additional observations from a re-analysis of the deposited data

How the results depend on the processing

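The count of genes called higher by limma was 1 with array weights, the deposited values, quantile normalization, median centring and every probe kept, dim ones included. It was 0 with normexp and quantile normalization, a filter of all 6 arrays, the mean of a gene's probes, slide as a block, a trended and robust variance, without any 1 replicate (0 to 0 in 6 fits) and without both arrays of slide row 2, the 1 alternative added after these values were seen. The cause was not tested. The count lower was 0 in each. With the replicate number as a block the count was 0. Deviations of same-numbered arrays correlated at 0.0194, 0.0519 and 0.131 over 47709 probes, so the numbers were not taken as pairs, and only number 3 had its own number as the best match in both genotypes.

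Of the 10 tested member probes, 8 kept 1 sign in all 14 alternatives. The exceptions were Aim2, at 0.17 without WT replicate 2, and the Ifi203 probe A_55_P1988202, which ranged from -1.37 to 1.68. The 14 alternatives are not separate checks. The replicate number as a block leaves each difference as in the main fit, and slide as a block equals leaving out WT replicate 1. The members were also chosen by their difference, so nothing is read from the count of kept signs. Leaving out 1 array moved Phf11d between 3.70 and 4.56, Phf11a between 3.25 and 4.02 and Ifi205 between -4.92 and -3.89. Scaling moved the median of all genes by at most 0.09 (log2). Phf11a, Phf11d, Ifi205 and Aim2 lie near background in 1 genotype or both, which limits the precision of their differences.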
